A study of Oryza sativa with 6 samples.

Results

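Abscisic acid (ABA) is the plant hormone of water shortage, and its level in a leaf is set by how fast it is made and how fast it is broken down. This report covers the genes for enzymes of those opposing steps in rice leaves. They were found by searching the protein annotation of the deposited expression table for zeaxanthin epoxidase, epoxycarotenoid dioxygenase, ABA 8'-hydroxylase, xanthoxin and abscisic-aldehyde oxidase, together with the identifiers of a zeaxanthin epoxidase and a dioxygenase gene, LOC4335984 and LOC4330451. The search returned 6 of the 2995 genes in the table. Zeaxanthin epoxidase matched 1 gene, epoxycarotenoid dioxygenase 2 and ABA 8'-hydroxylase 3, whereas xanthoxin and abscisic-aldehyde oxidase matched 0 of the listed genes.

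The data are RNA-seq of leaves from PIF4v3m, an edited rice line (3 libraries), and from WYG7 (Wuyungeng 7), the wild-type cultivar (3 libraries). All plants of both lines were grown in pots under fluctuating light combined with drought stress, and by the labels the leaves came from plants 3 weeks old, whereas the study's methods describe older plants sampled at the end of the stress treatment, so the age is not settled. The study's methods describe a CRISPR/Cas9 line made in WYG7 that carries a single-nucleotide deletion at a promoter site of OsPIL13, a phytochrome-interacting transcription factor, and PIF4v3m was taken to be that line, although the labels do not state the match. It is 1 edited line, so what is particular to that line and what follows from the edit cannot be told apart, and both lines were under stress, so no value here is a response to drought or to light.

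In plants, ABA is made from carotenoids. Zeaxanthin epoxidase converts zeaxanthin to violaxanthin in the plastid, a step that also belongs to the xanthophyll cycle by which leaves adjust to bright light. The 9-cis-epoxycarotenoid dioxygenases (NCEDs) then cut an epoxycarotenoid to give xanthoxin, which is commonly regarded as the rate-limiting step, and xanthoxin is turned into ABA in the cytosol by a short-chain dehydrogenase and an aldehyde oxidase. Breakdown begins with the ABA 8'-hydroxylases, cytochrome P450 enzymes of the CYP707A family, whose product rearranges to phaseic acid.

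Expression was lower in PIF4v3m than in WYG7 for 5 of the 6 enzyme genes and higher for 1. All 3 synthesis genes fell, 2 of the 3 genes annotated as 8'-hydroxylases fell too, and the remaining 8'-hydroxylase-annotated gene rose. These calls are limma tests on log2(FPKM + 1) with Benjamini-Hochberg adjustment over all 2995 genes, at an adjusted p under 0.05. FPKM is the fragment count scaled by transcript length and by library size, so levels of different genes are compared per length. Of all listed genes, 99.9% passed this test, 45.8% as higher and 54.1% as lower, because every gene in the table already met the authors' own limits for a difference between the lines. The adjusted p-values below are therefore a description of how far the libraries of the lines lie apart and are no independent evidence that a gene changed. The median log2 fold change was -1.50 over the 6 enzyme genes and -0.56 over all listed genes. With 0.1 or 0.01 FPKM added in place of 1, the median over all listed genes was -1.08 or -1.13. The -1.50 holds for 1 FPKM added and is not to be set beside these values. With 0.01 FPKM added, the enzyme genes were at -2.64 (zeaxanthin epoxidase), -1.66 (NCED1), -2.21 (NCED5), -2.04 (ABA8ox2), -1.47 (ABA8ox3) and 1.23 (LOC4337528). As every listed gene differs by at least 1 (log2) in the authors' values, the median over all listed genes is no typical change. The libraries of the lines did not overlap for any of the 6 genes, 5 lying lower in PIF4v3m and 1 higher. The same was so for 99.4% of all listed genes, 53.9% lying lower and 45.5% higher, and with 3 libraries against 3 the exact two-sided permutation test gave 0.1 for each, the smallest p it allows. Scaling each library by its median ratio over the listed genes kept all 6 directions and calls but moved the log2 fold changes of NCED1 to -0.93, ABA8ox3 to -0.69, ABA8ox2 to -1.14 and LOC4337528 to 1.64. In whole leaves, fewer cells of a type and less RNA per cell cannot be told apart.

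**Figure D1:**
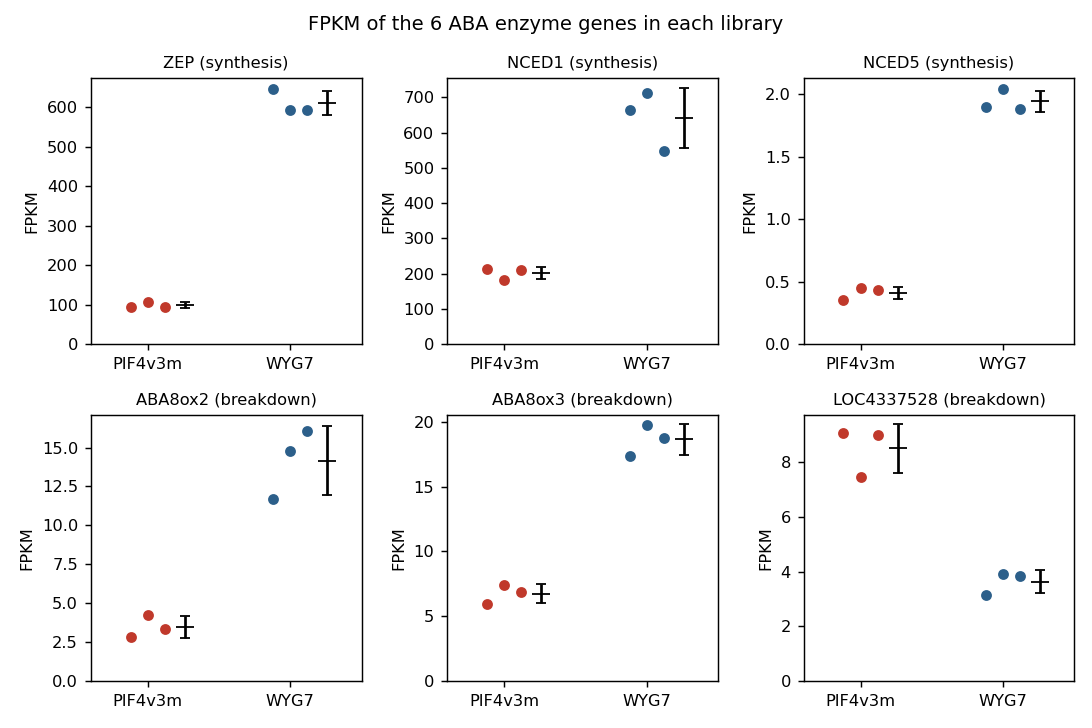
FPKM (vertical axes, each starting at 0) of the 6 ABA enzyme genes in the 3 PIF4v3m libraries (red points) and the 3 WYG7 libraries (blue points), with the mean and SD of each line as a black bar. In 5 panels the PIF4v3m points lie below the WYG7 points, and in the panel of LOC4337528 they lie above, between 7.48 and 9.07 FPKM against 3.14 to 3.92 FPKM in WYG7.

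Among the synthesis genes, zeaxanthin epoxidase (ZEP, LOC4335984, RAP locus Os04g0448900 on chromosome 4) had the widest gap between the lines. Its level was 93.4, 107 and 94.3 FPKM in the PIF4v3m libraries, against 646, 594 and 593 FPKM in the WYG7 libraries. The libraries within a line lay close together, with a coefficient of variation of 7.93% in PIF4v3m and 4.92% in WYG7, and the lowest WYG7 library was far above the highest PIF4v3m library. The mean was 98.3 ± 7.79 FPKM in PIF4v3m and 611 ± 30.1 FPKM in WYG7 (SD, n = 3 each), 6.21-fold lower in PIF4v3m. ZEP fell by 2.62 on the log2 scale (standard error 0.10, limma adjusted p = 4.55e-07). By size of change on that scale it ranked 81 among the 1619 genes called lower. The 1 FPKM added before the logarithm understates changes of genes at low levels, so this rank favours abundant genes such as ZEP. By mean level it ranked 120 of the 2995 listed genes in PIF4v3m and 15 in WYG7.

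NCED1 (LOC4330451, Os02g0704000 on chromosome 2), a dioxygenase of the xanthoxin-forming step, was the most abundant of the 6 transcripts in PIF4v3m. It had 213, 183 and 210 FPKM in the PIF4v3m libraries, against 665, 712 and 547 FPKM in the WYG7 libraries. WYG7 varied more here than for ZEP (coefficient of variation 13.3% in WYG7, 8.11% in PIF4v3m), but its lowest library was still well above every PIF4v3m library. The mean of 202 ± 16.4 FPKM in PIF4v3m against 641 ± 85.2 FPKM in WYG7 (SD, n = 3 each) was 3.17-fold lower in PIF4v3m. On the log2 scale the change was -1.65 with a standard error of 0.13 (limma adjusted p = 8.01e-06). NCED1 ranked 44 of the listed genes by level in PIF4v3m and 14 in WYG7.

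NCED5 (LOC9270250) carries the same enzyme name but was expressed at a far lower level, and the annotation sources disagree on it. Swiss-Prot calls it NCED5, whereas the KEGG text in the table calls it 9-cis-epoxycarotenoid dioxygenase 1. Its level was 0.357, 0.448 and 0.433 FPKM in the PIF4v3m libraries, against 1.90, 2.04 and 1.88 FPKM in the WYG7 libraries, again without overlap. The ratio of the means was 4.71-fold lower in PIF4v3m, larger than that of NCED1, while on the log2 scale the change of -1.06 was smaller (SE 0.10, adjusted p from limma 1.78e-05), since adding 1 FPKM before the logarithm understates changes at levels this low. With 0.01 FPKM added instead, its log2 fold change was -2.21. NCED5 added little to the level summed over the listed dioxygenase genes, NCED1 and NCED5. That sum was 213.4, 183.9 and 210.9 FPKM in PIF4v3m and 667, 714 and 549 FPKM in WYG7. Dioxygenase genes outside the listed ones are not part of it.

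The breakdown genes were expressed at lower levels than ZEP and NCED1. ABA8ox3 (LOC4347261, Os09g0457100 on chromosome 9; also known as CYP707A7), an 8'-hydroxylase, had 5.92, 7.42 and 6.89 FPKM in the PIF4v3m libraries, against 17.4, 19.8 and 18.8 FPKM in the WYG7 libraries. Every PIF4v3m library was far below every WYG7 library. The mean was 6.74 ± 0.761 FPKM in PIF4v3m and 18.7 ± 1.18 FPKM in WYG7 (SD, n = 3 each), 2.77-fold lower in PIF4v3m, and the log2 change was -1.35 with a standard error of 0.11 (adjusted p from limma 1.19e-05).

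ABA8ox2 (LOC4345810, Os08g0472800 on chromosome 8; also known as CYP707A6), another 8'-hydroxylase, had 2.80, 4.23 and 3.36 FPKM in the PIF4v3m libraries, against 11.7, 14.8 and 16.0 FPKM in the WYG7 libraries. It was the most variable of the 6 genes within both lines, with a coefficient of variation of 20.7% in PIF4v3m and 15.8% in WYG7, yet the lines stayed apart. Its mean was 3.46 ± 0.717 FPKM in PIF4v3m and 14.2 ± 2.24 FPKM in WYG7 (SD, n = 3 each). That is 4.09-fold lower in PIF4v3m, or -1.77 on the log2 scale with a standard error of 0.16 (adjusted p from limma 1.97e-05).

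LOC4337528 was the single gene of the 6 that was higher in PIF4v3m, and its annotation is the least certain. It had 9.07, 7.48 and 9.01 FPKM in the PIF4v3m libraries, against 3.14, 3.92 and 3.84 FPKM in the WYG7 libraries, so that the lowest PIF4v3m library was above the highest WYG7 library. The mean of 8.52 ± 0.899 FPKM in PIF4v3m against 3.63 ± 0.428 FPKM in WYG7 (SD, n = 3 each) was 2.35-fold higher in PIF4v3m, or 1.04 on the log2 scale with a standard error of 0.13 (adjusted p from limma 9.82e-05). Swiss-Prot likens it to ABA 8'-hydroxylase 2 and its protein database title is an 8'-hydroxylase 4 isoform. KEGG instead places it with cytochrome P450 family 26, an animal family of retinoic acid hydroxylases, gives it no place in carotenoid biosynthesis, and its gene ontology terms include sterol metabolism. When the members were chosen by KEGG orthology in place of Swiss-Prot, a choice made after seeing the data, LOC4337528 dropped out. That choice also brought in an aldehyde oxidase (LOC4342479) and a short-chain dehydrogenase (LOC4332559). Of the genes so chosen, 0 were higher and 7 lower, against 45.8% higher and 54.1% lower of all listed genes.

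**Figure D2:**
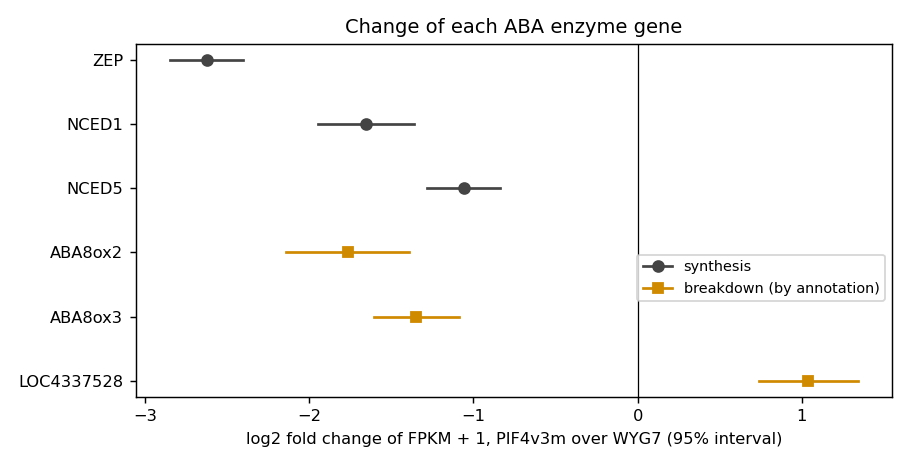
Log2 fold change of FPKM + 1, PIF4v3m over WYG7 (horizontal axis), for each of the 6 genes, with the 95% interval from limma as a line; dark circles are synthesis genes and orange squares are genes annotated as breakdown enzymes. The intervals of the 5 genes that fell lie left of 0, that of ZEP from -2.85 to -2.40 being the farthest, and that of LOC4337528 lies right of 0, from 0.74 to 1.34.

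The 6 genes kept much the same order of levels in both lines, apart from the 8'-hydroxylase-annotated genes. In PIF4v3m the order was NCED1, ZEP, LOC4337528, ABA8ox3, ABA8ox2 and NCED5, and each neighbouring pair was separated in all libraries, although the lowest LOC4337528 library (7.48 FPKM) barely exceeded the highest ABA8ox3 library (7.42 FPKM). In WYG7 the order was NCED1, ZEP, ABA8ox3, ABA8ox2, LOC4337528 and NCED5, where NCED1 (547 to 712 FPKM) and ZEP (593 to 646 FPKM) overlapped and could not be ranked against each other. Thus LOC4337528 had the highest level of the 3 hydroxylase-annotated genes in PIF4v3m and the lowest in WYG7. Their summed level was 17.8, 19.1 and 19.3 FPKM in PIF4v3m against 32.2, 38.4 and 38.7 FPKM in WYG7, and without LOC4337528 it was 8.72, 11.6 and 10.3 FPKM in PIF4v3m against 29.1, 34.5 and 34.8 FPKM in WYG7.

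Whether the genes moved by unequal amounts was examined with the 15 pairs that the 6 genes form, each as the difference of log2(FPKM + 1) within a library. For 13 of the 15 pairs the PIF4v3m and WYG7 libraries did not overlap. Of these, 5 are the pairs with LOC4337528. That gene rose and the others fell, each without overlap, so these pairs had to separate. Of the 6 pairs with neither ZEP nor LOC4337528, 4 did not overlap. The share over all pairs of listed genes was not computed, so the count is no result about the ABA enzyme genes. The exact two-sided permutation test cannot go below 0.1 for any pair (Benjamini-Hochberg adjusted p = 0.115 over the 15 pairs), so that none can pass a threshold of 0.05, and the differences are given as sizes.

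The ZEP to NCED1 ratio of FPKM was 0.439, 0.585 and 0.448 in the PIF4v3m libraries, against 0.971, 0.835 and 1.084 in the WYG7 libraries. Thus the epoxidase transcript was about as abundant as the NCED1 transcript in WYG7 and clearly less abundant in every PIF4v3m library. The log2 fold change of ZEP was lower than that of NCED1 by 0.97 (difference -0.97). The change of ZEP was also lower than those of ABA8ox3 (difference -1.28) and ABA8ox2 (difference -0.86), in both cases without overlap of the lines.

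NCED1 and the CYP707A genes fell by amounts that were not separable. The NCED1 to ABA8ox3 ratio was 36.0, 24.7 and 30.6 in the PIF4v3m libraries and 38.2, 36.0 and 29.1 in the WYG7 libraries, which overlapped (difference in log2 fold change -0.31, exact permutation p = 0.2, adjusted p = 0.214). This difference was -0.17 without PIF4v3m replicate 2 and -0.19 with 0.01 FPKM added. The NCED1 to ABA8ox2 ratio was 76.0, 43.4 and 62.6 in the PIF4v3m libraries and 57.0, 48.2 and 34.1 in the WYG7 libraries, also overlapping (difference 0.11, exact permutation p = 0.6, adjusted p = 0.6). This last difference was 0.38 with 0.01 FPKM added, 0.30 without PIF4v3m replicate 2, 0.27 without WYG7 replicate 1 and 0.071 without PIF4v3m replicate 3, and its sign turned without WYG7 replicate 3 (-0.089) and without PIF4v3m replicate 1 (-0.037). With 3 libraries a line, these values do not show that the genes fell equally.

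The balance between the hydroxylase-annotated genes also moved. The widest differences of the 15 pairs were those with LOC4337528, the 1 gene that rose. With 1 FPKM added they were -3.66 for ZEP, -2.80 for ABA8ox2, -2.69 for NCED1, -2.39 for ABA8ox3 and -2.10 for NCED5. With 0.01 FPKM added they were -3.87 for ZEP, -3.26 for ABA8ox2, -2.89 for NCED1, -2.70 for ABA8ox3 and -3.44 for NCED5. Their sizes and the place of NCED5 among them thus depend on the value added. The ABA8ox3 to LOC4337528 ratio was 0.652, 0.991 and 0.765 in the PIF4v3m libraries, against 5.54, 5.04 and 4.90 in the WYG7 libraries. ABA8ox3 therefore stayed below LOC4337528 in every PIF4v3m library and was several times above it in every WYG7 library. The ABA8ox2 to ABA8ox3 ratio differed less, with 0.511 ± 0.052 in PIF4v3m and 0.757 ± 0.092 in WYG7 (SD, n = 3 each). The NCED1 to NCED5 ratio was 497 ± 94.4 in PIF4v3m and 329 ± 34.1 in WYG7 (SD, n = 3 each), but the difference of the log2 fold changes was -0.59 with 1 FPKM added and 0.34 with 0.1 FPKM added, so which dioxygenase fell more depends on the scale.

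**Figure D3:**
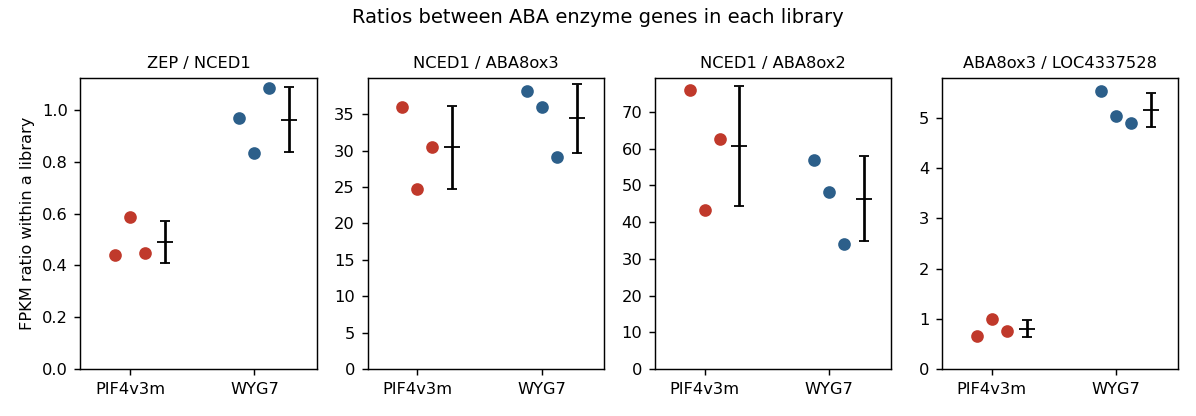
Ratio of FPKM between gene pairs within each library (vertical axes, starting at 0) for PIF4v3m (red) and WYG7 (blue), with the mean and SD of each line in black. The ZEP to NCED1 and ABA8ox3 to LOC4337528 ratios are lower in all PIF4v3m libraries, whereas the lines overlap for NCED1 over ABA8ox3 and NCED1 over ABA8ox2.

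Upstream of ZEP, the carotenoid route was listed with 5 genes, of which 2 were higher and 3 lower in PIF4v3m (median log2 fold change -0.98). Phytoene synthase 2 (LOC4352846), which makes the first carotenoid of the route, rose to 125 ± 6.41 FPKM in PIF4v3m, against 40.3 ± 4.20 FPKM in WYG7 (log2 fold change 1.62, standard error 0.10, limma adjusted p = 3.38e-06). A beta-carotene hydroxylase (LOC4336753), of the enzyme class that makes zeaxanthin, rose as well, to 48.7 ± 8.03 FPKM in PIF4v3m against 16.6 ± 0.795 FPKM in WYG7. The most abundant listed transcripts up to zeaxanthin were thus higher in PIF4v3m while ZEP, which consumes zeaxanthin, was lower.

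The 3 genes of the route that fell were expressed at a few FPKM. They were 2 further beta-carotene hydroxylases, LOC4331460 with 1.13 ± 0.0999 FPKM in PIF4v3m and 3.22 ± 0.235 FPKM in WYG7, and LOC4349224 with 0.476 ± 0.106 FPKM in PIF4v3m and 2.90 ± 1.01 FPKM in WYG7. The last was prolycopene isomerase (LOC4352866), with 2.61 ± 0.344 FPKM in PIF4v3m and 6.16 ± 0.433 FPKM in WYG7, although its protein database title names only an oxidoreductase domain. Carotenoid cleavage dioxygenase 7 (LOC4336591), which acts in strigolactone synthesis, was near 0 in both lines, with 0.122 ± 0.027 FPKM in PIF4v3m and 0.435 ± 0.132 FPKM in WYG7.

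KEGG assigned 13 listed genes to carotenoid biosynthesis, 2 higher and 11 lower in PIF4v3m, a grouping looked at after values were seen. With the ABA enzyme genes left out it held 8 genes, 2 higher and 6 lower. Among them were genes that KEGG places at the last steps of ABA synthesis, where the Swiss-Prot search had matched none. An aldehyde oxidase (LOC4342479), which Swiss-Prot names for indole-3-acetaldehyde and KEGG for abscisic aldehyde, had 6.07 ± 0.772 FPKM in PIF4v3m and 22.2 ± 0.701 FPKM in WYG7 (log2 fold change -1.72, standard error 0.11, limma adjusted p = 3.89e-06). A tasselseed-2 type short-chain dehydrogenase (LOC4332559), which KEGG places at the xanthoxin step, had 0.320 ± 0.241 FPKM in PIF4v3m and 1.59 ± 0.667 FPKM in WYG7. Whether either protein acts on an ABA precursor in rice was not tested.

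**Figure D4:**
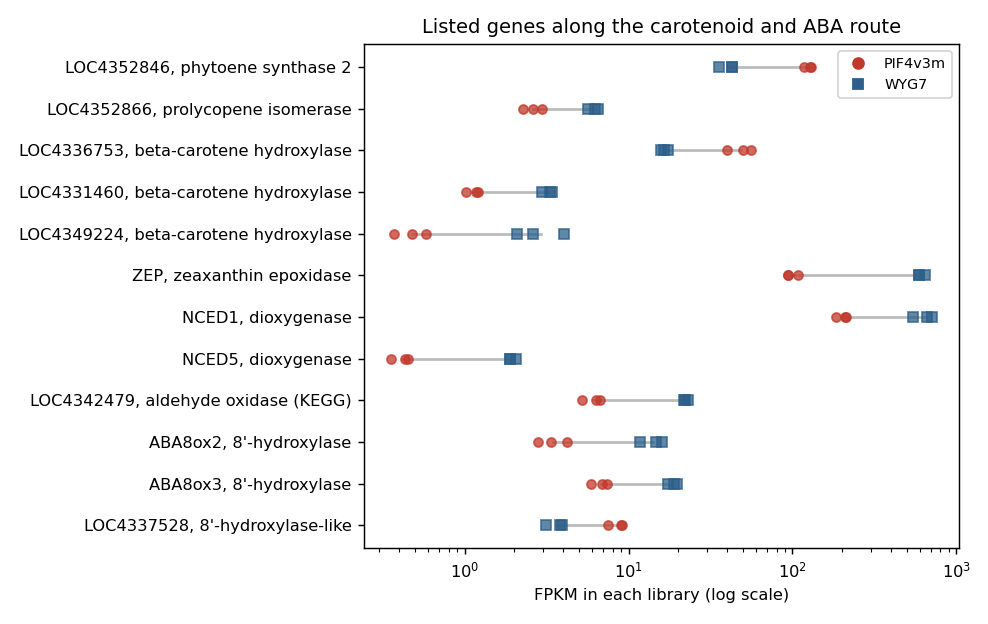
FPKM on a log axis for listed genes ordered from the start of the carotenoid route (top) to ABA breakdown (bottom), with PIF4v3m libraries as red circles, WYG7 libraries as blue squares and a grey line between the means of the lines. Phytoene synthase 2, the beta-carotene hydroxylase LOC4336753 and LOC4337528 are higher in PIF4v3m, and the other 9 genes are lower.

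Genes that carry ABA, sense it or relay its signal did not move in a single direction. ABC transporter G family member 25 (LOC4349927), named for an Arabidopsis ABA exporter, had 4.75 ± 0.164 FPKM in PIF4v3m and 1.96 ± 0.257 FPKM in WYG7. The ABA receptor PYL3 (LOC4328916), the 1 listed receptor gene, rose to 50.8 ± 1.77 FPKM in PIF4v3m against 19.2 ± 0.518 FPKM in WYG7 (log2 fold change 1.36, limma adjusted p = 2.69e-06). SAPK9 (LOC4352660), a SnRK2 kinase of the ABA response, fell to 1.55 ± 1.07 FPKM in PIF4v3m against 70.5 ± 8.08 FPKM in WYG7 (log2 fold change -4.91, standard error 0.31, limma adjusted p = 3.58e-06).

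Of 9 listed protein phosphatase 2C genes, a class whose clade A members restrain ABA signalling, 5 rose and 4 fell (median log2 fold change 0.93). KEGG placed none of the 9 in plant hormone signalling, unlike PYL3 and SAPK9. Whether any of them belongs to clade A was not tested, so this split is not one of known ABA repressors. The lowest p-values belonged to 2C 43 (LOC9272700, log2 fold change 2.21) and 2C 10 (LOC4328306, 1.38) among those that rose, and to 2C 27 (LOC4331028, -1.69) and 2C 78 (LOC4352638, -1.40) among those that fell. The ABA-related bZIP factors split as well, with bZIP12 (LOC4325078) at 9.61 ± 1.29 FPKM in PIF4v3m and 3.86 ± 0.800 FPKM in WYG7, and ABI5-like protein 3 (LOC4344334) at 1.11 ± 0.300 FPKM in PIF4v3m and 3.78 ± 0.890 FPKM in WYG7.

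Listed proteins of the ABA and drought response numbered 4, with 3 higher and 1 lower in PIF4v3m (median log2 fold change 0.97). The most abundant was a late embryogenesis abundant protein likened to Arabidopsis At5g17165 (LOC4336855), with 160 ± 13.3 FPKM in PIF4v3m and 56.4 ± 4.52 FPKM in WYG7. HVA22-like protein a (LOC4330723) and a D-34 type late embryogenesis abundant protein (LOC107278683) were also higher, with log2 fold changes of 1.01 and 0.93. Abscisic stress-ripening protein 2 (LOC4335844) was lower, with 10.5 ± 0.409 FPKM in PIF4v3m and 26.1 ± 6.23 FPKM in WYG7, while its protein database title names a filaggrin-like protein.

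For each ABA enzyme gene, the listed gene with the most similar profile was taken as the one with the smallest root mean square difference in log2(FPKM + 1), each gene less its own mean, over the 6 libraries. The closest to NCED1 was the aquaporin PIP2-7 (LOC4347729, difference 0.0371), which also had a like level, 221, 192 and 211 FPKM in PIF4v3m and 682, 694 and 573 FPKM in WYG7. LOC4337528 was closest to LOC4334862 (0.0328), NCED5 to the organelle RNA editing factor MORF2 (LOC4339932, 0.0396), and ABA8ox3 to a 70 kDa peptidyl-prolyl isomerase (LOC4346090, 0.0481). ZEP and ABA8ox2 had no neighbour that close, their nearest being the UDP-glycosyltransferase UGT13248 (LOC4347592, 0.108) and subtilisin-like protease 4 (LOC4331422, 0.117). The second nearest were IAA13 (LOC4334069, 0.114) for ZEP, Pumilio 24 (LOC4334667, 0.0449) for NCED5, a G-type lectin receptor kinase (LOC107276737, 0.0502) for ABA8ox3 and potassium transporter 22 (LOC4342173, 0.0404) for LOC4337528, while NCED1 (0.0699) and ABA8ox2 (0.122) had new genes without a name. The measure rests on the 1 FPKM added, and for genes of low level it does not mean a like ratio. UGT13248 had 0, 0 and 0.022 FPKM in PIF4v3m against 5.97, 4.96 and 6.01 FPKM in WYG7, a far larger ratio than that of ZEP, and LOC4334862 was 7.53-fold higher in PIF4v3m where LOC4337528 was 2.35-fold higher. The 6 libraries belong to 2 lines, so a likeness here may be one of the gap between the lines alone.

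Markers of the labelled tissue were present, and they differed between the lines too. Of the 12 listed leaf and chloroplast markers, 7 were higher and 5 lower in PIF4v3m, and none was at 0 in any library. Their summed level was 7042 to 9337 FPKM in PIF4v3m and 13909 to 14688 FPKM in WYG7. In WYG7 the largest parts of that sum were chlorophyll a-b binding proteins 1, 2 and CP29.1, at 5380, 2811 and 3409 FPKM. These were at 791, 408 and 1027 FPKM in PIF4v3m. The ribulose bisphosphate carboxylase small chain A was higher, at 2850 FPKM in PIF4v3m against 1104 FPKM in WYG7. The lowest p-values belonged to a photosystem II 10 kDa polypeptide (LOC4342395), with 1.24 ± 0.316 FPKM in PIF4v3m and 109 ± 13.6 FPKM in WYG7, and to chlorophyll a-b binding protein 1 (LOC4346803, log2 fold change -2.77) among those that fell. Among those that rose they belonged to PHOTOSYSTEM I ASSEMBLY 2 (LOC9266978, 1.82) and photosystem I chlorophyll a/b-binding protein 5 (LOC4330828, 1.02). The 1 listed seed storage marker, a vicilin-like protein (LOC4331947), was at 0.02 to 0.14 FPKM in PIF4v3m and 1.78 to 5.68 FPKM in WYG7. Of the 7 listed clock genes, 6 were higher and 1 lower in PIF4v3m, none was at 0 in any library, and their summed level was 535 to 546 FPKM in PIF4v3m and 308 to 323 FPKM in WYG7. REVEILLE 2 (LOC4336779), a MYB-like factor related to LHY, was at 69.3 to 77.9 FPKM in PIF4v3m and 0.13 to 0.21 FPKM in WYG7. Its relative REVEILLE 1 (LOC4330349) had 32.6 ± 2.93 FPKM in PIF4v3m and 0.118 ± 0.0631 FPKM in WYG7 (SD, n = 3 each). The clock gene that fell was PRR73 (LOC4332464), with 82.8 ± 11.3 FPKM in PIF4v3m and 236 ± 4.70 FPKM in WYG7. LHY (LOC4344703), a morning-phase clock factor, had 218, 216 and 218 FPKM in PIF4v3m against 19.1, 24.5 and 22.8 FPKM in WYG7, all libraries of PIF4v3m being far above WYG7. No collection time is recorded, and the part of the clock or the time of day, or of leaf makeup, in the levels of the ABA enzyme genes was not tested.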

How the data were processed

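Leaf RNA-seq of 3 PIF4v3m and 3 WYG7 libraries was used as 1 deposited table. Its values are FPKM, computed by the authors. Their methods name STAR and Cufflinks with DESeq2 for calling genes, whereas the submitters' processing notes name HISAT2 2.0, StringTie 1.3.0, Bowtie 0.12.2 and a mouse build, so the genome build was treated as unsettled and no coordinates are given. How reads shared between related genes were counted is not given in the sources used here. The table also holds the authors' own p-value (FDR) and log2 fold change columns for this comparison, which were not used except to find that all 2995 genes pass an FDR of 0.01 and differ by at least 1 on the log2 scale. A gene outside the table was not analysed here, and nothing follows about its expression. This differs from the planned test over all genes.

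The table holds no read counts. The study's supplement states reads for each library, which were not used here, so no counting error is given for single values. FPKM summed over the listed genes were 67146 to 72353 in PIF4v3m and 73597 to 83228 in WYG7. The study calls the 3 samples of a line independent replicates.

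FPKM were transformed to log2(FPKM + 1) and all genes with a mean above 0.01 FPKM (2995, all 6 ABA enzyme genes included) were fitted with limma 3.58.1 in R 4.3.3, with mean-variance trend and no covariates, two-sided, with Benjamini-Hochberg adjustment. The step was tested on simulated data with known changes. Single values and the pairwise differences were tested by exact two-sided permutation of the 6 libraries (scipy 1.17.1). The text names all genes found by the search, the nearest genes of each, LHY, and, for each gene list, the 2 with the lowest p among higher and among lower genes. The members and lists were chosen with earlier results of these data known. Of the listed IDs, 2761 matched the RefSeq gene table (assembly ASM3414082v1), among them all 6 ABA enzyme genes; gene names and chromosomes come from the deposited annotation columns or that table. Alternatives covered the pseudocount, filter, scaling, weights, trend, the replicate number as a block and leaving out each library.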

Additional observations from a re-analysis of the deposited data

How the results depend on the processing

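The 6 ABA enzyme genes kept their direction and stayed under an adjusted p of 0.05 (limma) in all 96 gene-by-setting alternatives, with a highest adjusted p of 9.14e-04. Their log2 fold changes ran from -2.70 to -1.91 for ZEP, -1.76 to -0.93 for NCED1, -2.21 to -0.71 for NCED5, -2.04 to -1.14 for ABA8ox2, -1.47 to -0.69 for ABA8ox3 and 0.96 to 1.64 for LOC4337528. The ends nearest 0 for the genes that fell, and the highest value of LOC4337528, came from median-ratio scaling, which moved the median of all listed genes by 0.30 (log2) and gave 1375 higher and 1359 lower genes, against 1373 higher and 1619 lower as deposited. Quantile normalization moved that median by 0.23 and rescaling to equal sums by -0.39. The rescaling also raised the values of every library before 1 was added, so the added 1 weighed less. With 0.1 or 0.01 FPKM added and no rescaling, that median moved by -0.53 or -0.57. The part of the -0.39 that is due to scaling was not separated. The median-ratio, equal-sum and quantile scalings rest on genes already called different. Members chosen by KEGG orthology, without LOC4337528 and with LOC4342479 and LOC4332559, gave 0 higher genes. Under quantile normalization 0 carotenoid cleavage genes were lower. The other 35 of 36 counts of ABA enzyme genes and 159 of 160 pathway counts stayed within 1.5 times. Differences between genes with NCED5 turned sign with less added before the logarithm. NCED1 and NCED5 gave 0.34 with 0.1 FPKM and 0.56 with 0.01 FPKM, NCED5 and ABA8ox3 gave -0.54 and -0.74, and NCED5 and ABA8ox2 gave -0.18 with 0.01 FPKM. Leaving out each library in turn, the difference of NCED1 and ABA8ox2 ran from -0.089 to 0.30, negative without WYG7 replicate 3 (-0.089) and without PIF4v3m replicate 1 (-0.037). Same-numbered libraries did not deviate together (correlations -0.07, 0.003 and -0.10 across genes), and the main fit used no pairing. These correlations cannot show whether same-numbered samples were grown or prepared together. With the replicate number as a block, 1 ABA enzyme gene was higher and 5 were lower, and 1372 and 1618 of all listed genes.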
